A study of Mus musculus with 24 samples.

Results

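The bone matrix and mineralization genes followed here in dermal papilla (DP) cells were Ibsp, Spp1, Dmp1, Mepe, Runx2, Sp7, Sost, Alpl, Phex and Mgp, which make 10 of the 25755 genes in the tables. They were picked by gene symbol around Ibsp, whose rise in the mutant at P24 was the largest of all genes, so that the values of the 10 genes in the P24 genotype comparison chose them and are given as a description with no p-value. The DP is a small mesenchymal cluster enclosed by the hair bulb, and its signals set whether the follicle grows or rests. The libraries came from DP cells of mice at P20 (first telogen, the resting phase), P24 (early anagen, the growth phase), P28 (mid-anagen) and P60 (second telogen), with 3 control and 3 double mutant (dM1/2) libraries at each age, 24 in all.

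All mice carried the Cor-cre transgene, which drives Cre recombinase from the Corin gene in the DP after birth. In dM1/2 both alleles of Hdac1 and of Hdac2, which encode histone deacetylases, were floxed, so that Cre could remove them. Controls also carried Cor-cre, together with floxed alleles of Hdac1, Hdac2 or both in combinations that kept at least 1 intact allele of Hdac1 or Hdac2, and the labels do not say which control genotype each library had. The Cor-cre line was FVB and the floxed lines C57BL/6J, so the background of the animals was mixed. The cells were labelled with YFP through Cre and sorted as YFP-positive cells from whole skin in consecutive rounds. In the 12 telogen libraries Xist lay between 8113 and 26333 normalized reads with Ddx3y at 0, and in the 12 anagen libraries Xist was at most 3.91 with Ddx3y between 969 and 1738. Telogen libraries were therefore from females and anagen libraries from males, and the telogen libraries were also the shallower ones, so hair-cycle stage, sex and depth cannot be told apart.

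As background, Ibsp (bone sialoprotein), Spp1 (osteopontin), Dmp1 and Mepe encode acidic, phosphorylated and integrin-binding proteins of the SIBLING family, whose genes lie side by side with Dspp on mouse chromosome 5 and whose proteins bind mineral in bone and dentin. Runx2 and Sp7 (osterix) encode the transcription factors that commit and mature bone-forming cells. Alpl encodes the alkaline phosphatase that splits pyrophosphate, an inhibitor of mineral growth, and in skin its activity is a classic stain for the DP. Phex encodes a membrane protease tied to phosphate balance, Sost encodes sclerostin, a Wnt inhibitor made by osteocytes, and Mgp encodes a matrix protein that keeps soft tissue from calcifying.

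The values are normalized reads, that is, reads of a gene divided by the DESeq2 size factor of the library, on 1 scale for all 24 libraries. Depth was 11635062 to 13369732 reads at P20, 35469841 to 49331751 at P24, 37171260 to 48331795 at P28 and 8171944 to 9724000 at P60. Hdac1 in dM1/2 was below every control library at P20 and P24, and overlapped with controls at P28 and P60. At P24 Hdac1 was lower in dM1/2, at 171 ± 48.7 against 670 ± 3.69 normalized reads (SD, n = 3 each, adjusted p = 0.00167, limma). At P28 the control libraries had 214, 529 and 105 and the dM1/2 libraries 190.2, 149 and 126 normalized reads, so that the library labelled P28 control 3 had less Hdac1 than every dM1/2 library. Hdac2 was not lower in dM1/2 by more than the spread at any age (adjusted p between 0.117 and 0.991, limma). The values count reads over whole genes, and where the floxed exons lie was not used here, so transcripts without the deleted part can still be counted. The library labelled P28 control 2 also stood apart, with 19.8% of its reads in Col1a1, while the most abundant gene took 5.33 to 10.9% in the other P28 libraries. Markers of the DP were present in all libraries, with a sum over 10 genes of at least 15839 normalized reads. P28 results of the 10 bone matrix and mineralization genes are given below with and without these control libraries where a call depends on them. For all other genes named below, single calls at P28 are not given without these libraries.

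The 300-base windows around the transcription starts of Ibsp, its neighbours Spp1, Dmp1 and Mepe, and Runx2 and Alpl are shown because these genes lie together or act in 1 pathway but moved differently. They run from 250 bases before to 50 bases after the start, 5′ to 3′ on the strand of the gene, from RefSeq (GRCm38.p6). Their positions are Ibsp window, chr5:104299037-104299336 (+), Spp1 window, chr5:104434861-104435160 (+), Dmp1 window, chr5:104202367-104202666 (+), Mepe window, chr5:104325079-104325378 (+), Runx2 window, chr17:44814578-44814877 (-) and Alpl window, chr4:137796335-137796634 (-). Capitals mark matches, on both strands, to the Runx core (ACCACA), the CCAAT box (spelled by its name), the TATA box (TATAAA), the GC box (GGGCGG) or a homeodomain element (CAATTA), and neighbouring matches may overlap, as the GC boxes of Alpl do.
Ibsp: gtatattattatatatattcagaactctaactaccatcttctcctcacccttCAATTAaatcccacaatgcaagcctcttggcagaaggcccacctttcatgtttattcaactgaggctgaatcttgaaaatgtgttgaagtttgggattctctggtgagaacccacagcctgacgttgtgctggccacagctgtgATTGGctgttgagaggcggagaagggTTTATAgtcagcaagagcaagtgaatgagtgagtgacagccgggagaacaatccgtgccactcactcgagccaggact
Spp1: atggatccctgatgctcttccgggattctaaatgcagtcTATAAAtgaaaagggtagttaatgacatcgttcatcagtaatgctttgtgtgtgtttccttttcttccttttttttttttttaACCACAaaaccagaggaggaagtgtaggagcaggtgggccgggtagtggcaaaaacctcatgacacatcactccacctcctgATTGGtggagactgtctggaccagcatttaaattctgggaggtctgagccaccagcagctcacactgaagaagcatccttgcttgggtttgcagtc
Dmp1: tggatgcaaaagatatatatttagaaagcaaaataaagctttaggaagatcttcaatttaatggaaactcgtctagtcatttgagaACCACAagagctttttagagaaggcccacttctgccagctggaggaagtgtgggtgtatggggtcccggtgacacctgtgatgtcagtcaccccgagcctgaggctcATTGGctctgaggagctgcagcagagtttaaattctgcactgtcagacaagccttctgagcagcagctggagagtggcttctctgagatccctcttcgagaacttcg
Mepe: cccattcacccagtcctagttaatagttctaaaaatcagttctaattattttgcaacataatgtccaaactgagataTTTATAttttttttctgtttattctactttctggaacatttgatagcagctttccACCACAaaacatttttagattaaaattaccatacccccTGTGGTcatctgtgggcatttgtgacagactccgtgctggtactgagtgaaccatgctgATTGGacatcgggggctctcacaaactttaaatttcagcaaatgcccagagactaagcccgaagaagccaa
Runx2: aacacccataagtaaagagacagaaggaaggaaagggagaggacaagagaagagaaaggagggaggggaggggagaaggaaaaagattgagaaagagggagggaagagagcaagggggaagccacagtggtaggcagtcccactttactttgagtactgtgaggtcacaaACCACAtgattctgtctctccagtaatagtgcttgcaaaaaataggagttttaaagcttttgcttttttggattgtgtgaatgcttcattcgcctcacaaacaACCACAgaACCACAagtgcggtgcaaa
Alpl: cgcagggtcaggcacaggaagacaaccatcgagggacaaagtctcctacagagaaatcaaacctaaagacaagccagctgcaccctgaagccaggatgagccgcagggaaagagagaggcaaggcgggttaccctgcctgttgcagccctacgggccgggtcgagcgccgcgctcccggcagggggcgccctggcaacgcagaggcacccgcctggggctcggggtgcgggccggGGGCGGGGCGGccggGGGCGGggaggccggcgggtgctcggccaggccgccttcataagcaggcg

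A window was found for 8 of the 10 genes, all but Sp7 and Mgp. Distances here are counted from the RefSeq start of each window. For Ibsp and Runx2 that start lies inside the GENCODE gene coordinates given below. The window of Ibsp held a TATA box match on the opposite strand beginning 28 bases before the start, an inverted CCAAT box 54 bases before it, and the homeodomain element 198 bases before it. The Runx core was not found on either strand in these 300 bases of Ibsp. Spp1 had the Runx core 128 bases, Dmp1 164 bases, and Mepe 118 and 80 bases before the start. The inverted CCAAT, 46 bases upstream in Spp1, 57 in Dmp1, 21 in Mepe and 56 in Sost, was thus shared by Ibsp and its neighbours. The Runx core was found in 4 of 8 member windows and in 16.8% of all 32851 windows, the CCAAT box in 5 of 8 and in 37.4%, the TATA box in 3 of 8 and in 13.6%, the GC box in 1 of 8 and in 35.7%, and the homeodomain element in 2 of 8 and in 8% of all windows. A match is a run of letters and does not show that a factor was bound.

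**Figure D1:**
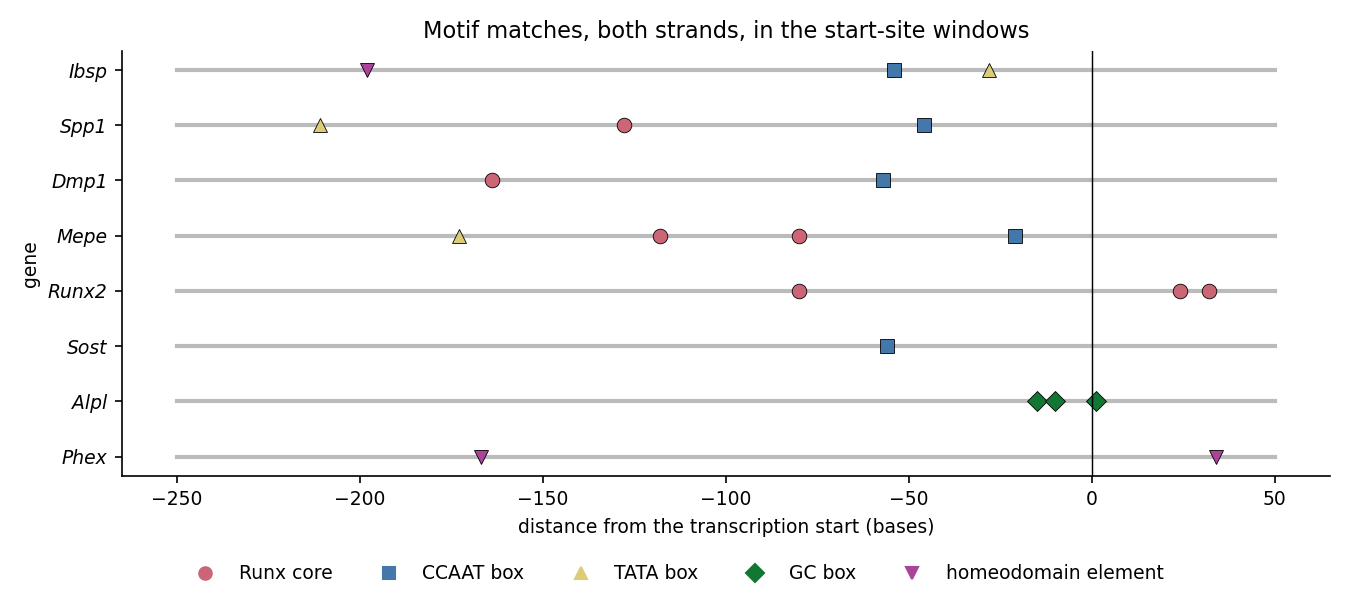
Matches to 5 motifs in the start-site windows of the 8 genes with a window. The horizontal axis is the distance in bases from the transcription start and each symbol is the first base of a match. The inverted CCAAT match lies 54 bases upstream in Ibsp, 46 in Spp1 and 57 in Dmp1, and the Runx core is missing from the Ibsp window.

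Ibsp had almost no reads in control DP at any age, and it was high in dM1/2 in anagen, at P24 and P28, and at 0 again in telogen. Ibsp (ENSMUSG00000029306) lies on chromosome 5 of GRCm38 from 104299171 to 104311469 on the plus strand, with an exonic length of 2068 bases. At P28 the control libraries had 1.74, 0 and 0.758 normalized reads, from 6 reads in all. The dM1/2 libraries of P28 had 131, 160 and 385 normalized reads, from 1640 reads. Every dM1/2 library was thus far above every control library, and the means were 0.833 ± 0.872 and 225 ± 139 (SD, n = 3 each). The difference was 6.90 on the log2(normalized reads + 1) scale (SE 0.57, adjusted p = 0.000457, limma), a scale on which a rise from so few reads is understated. The ratio of the means was 271, and it rests on 6 control reads. Since these are bulk samples, more cells with Ibsp and more Ibsp per cell cannot be told apart.

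The call of Ibsp at P28 held in each of 13 alternative fits, the fit without the limit of 10 normalized reads included. Adjusted p was at most 0.00581 (limma) among those that left out 1 library. At P24, the comparison that chose the genes, controls had 1.16, 3.01 and 0.397 normalized reads (10 reads) and dM1/2 had 346, 758 and 860 (5487 reads). The means there were 1.52 ± 1.34 and 655 ± 272. All 3 dM1/2 libraries at P24 were above all controls, and the dM1/2 libraries of P28 reached from below to just above the lowest of them.

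In the 12 telogen libraries no read of Ibsp was counted in control or dM1/2. At the depth of these libraries 3 reads, the number that a count of 0 allows for counting error only, come to 5.55 to 8.60 normalized reads. The traces in anagen controls, 3.01 at most, would therefore not have been detectable in telogen, while a level like the 131 normalized reads of the lowest P28 dM1/2 library would have been. With no read in telogen, the contrast of the effect at P28 with the mean effect at P20 and P60 was the P28 difference itself, 6.90 log2 units (SE 0.85, adjusted p = 8.64e-05, limma over 18 libraries), and adds no comparison of measured levels. edgeR did not call this difference (adjusted p = 0.9999 with TMM), with 4 of the 6 groups at 0 reads, and DESeq2 did.

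**Figure D2:**
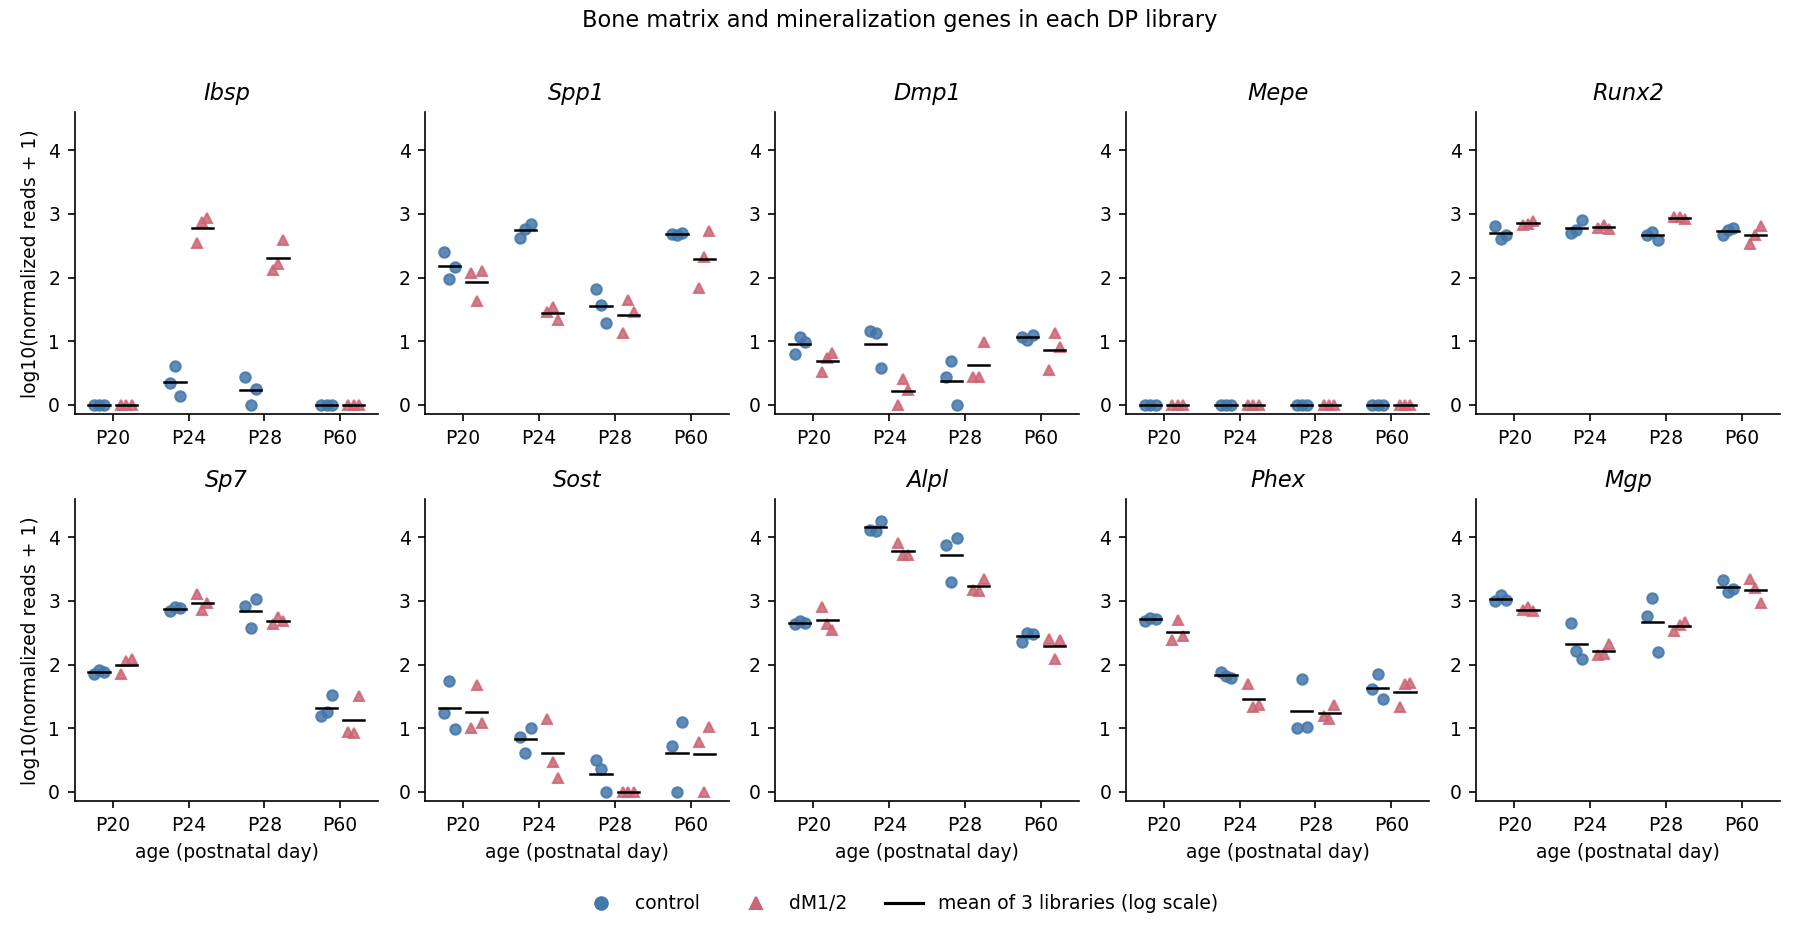
Levels of the 10 genes in each of the 24 libraries, as log10(normalized reads + 1) against age. Circles are control and triangles dM1/2 libraries, with a bar at the mean of 3. Ibsp is at 0 in telogen and between 131 and 860 normalized reads in the anagen dM1/2 libraries, Mepe is at 0 throughout, and Alpl is highest in anagen.

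None of the other SIBLING genes was called higher in dM1/2 at P28. Spp1 (osteopontin, ENSMUSG00000029304, chr5:104435118-104441050, plus strand), a secreted protein that binds integrins and CD44, was low in dM1/2 at P24. There the controls had 419, 585 and 703 and the dM1/2 libraries 27.6, 33.5 and 20.6 normalized reads, with no overlap. At P28 the controls had 65.2, 35.9 and 18.2, next to 12.4, 42.9 and 27.7 in dM1/2. The groups overlapped at P28, and the log2 difference of -0.49 (SE 0.60) did not pass the test (adjusted p = 0.57, limma). Spp1 overlapped in telogen too, with log2 differences of -0.83 (SE 0.46, adjusted p = 0.338) at P20 and -1.29 (SE 0.63, adjusted p = 0.986) at P60. At P60 the 3 controls were close together, from 465 to 500.3 normalized reads, while the dM1/2 libraries spread from 68.2 over 206 to 544. An exon of Gm42793 overlaps Spp1 in the annotation.

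Dmp1 (ENSMUSG00000029307, chr5:104202613-104214102, plus strand), an osteocyte matrix protein that lies next to Ibsp, was near the detection limit, with 151 reads in all over the 24 libraries and at most 13.5 normalized reads in any. At P24 the dM1/2 libraries had 0.733 ± 0.763 and the controls 9.62 ± 5.95 normalized reads (SD, n = 3 each), and at P28 the order was turned, with 4.08 ± 4.11 in dM1/2 and 1.86 ± 1.92 in controls. Dmp1 was below the limit for testing, a mean of 10 normalized reads, in every comparison. Mepe (ENSMUSG00000053863, chr5:104325329-104338611, plus strand), which starts 26.2 kb from the start of Ibsp, had 0 reads in all 24 libraries. In the 6 anagen dM1/2 libraries, where Ibsp was high, 3 reads of Mepe would have come to at most 1.29 normalized reads.

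Of the transcription factors, Runx2 rose in dM1/2 at P28 and Sp7 did not pass the test. Runx2 (ENSMUSG00000039153, chr17:44495987-44814797, minus strand), the runt-domain factor of early osteoblasts, had 472, 523 and 388 normalized reads in P28 controls. The dM1/2 libraries had 902, 879 and 845, closely spaced and all above the controls. The log2 difference was 0.93 (SE 0.14, adjusted p = 0.00317, limma), and the ratio of the means was 1.90. The call held in each of 13 alternative fits of the P28 comparison. At P24 the values were 492, 563 and 814 in controls and 605, 678 and 576 in dM1/2, so the groups overlapped there with means of 623 ± 169 and 619.9 ± 52.6. At P20 every dM1/2 library, at 664, 704 and 777, was above every control, at 651, 398 and 470.4, but the difference of 0.52 (SE 0.18) was not called (adjusted p = 0.164). Without the library P20 control 1 it was 0.72 and was called (adjusted p = 0.0207). At P60 the means were 535 ± 69.7 in controls and 487 ± 154 in dM1/2, with overlap.

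The genotype effect of Runx2 at P28 exceeded its mean effect in telogen by 0.76 log2 units (SE 0.26, adjusted p = 0.0403, limma), a narrow call. Leaving out 1 library ended it in 12 of 18 cases, with adjusted p from 0.0521 to 0.0957 in them. These were P20 control 1 and 3, P20 dM1/2 1 and 2, P28 control 1 and 3, each of the P28 dM1/2 libraries, P60 control 2 and 3 and P60 dM1/2 2. Exons of Runx2os1, an antisense transcript in the annotation, overlap those of Runx2. The libraries were directional, but whether the counting used strand is not given in the sources used here.

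Sp7 (osterix, ENSMUSG00000060284, chr15:102356606-102367182, minus strand), a zinc-finger factor that acts after Runx2 in bone, was higher in each of the 12 anagen libraries than in any of the 12 telogen libraries. In P24 controls it had 690, 791 and 778 normalized reads, and in P60 controls 14.7, 16.7 and 32.3. At P24 the dM1/2 libraries had 1269, 709.9 and 919.9, overlapping the controls. At P28 the controls had 817, 372 and 1073 and the dM1/2 libraries 432, 557 and 489. The low control of P28 was the library that stood apart, P28 control 2. The log2 difference at P28 was -0.49 (SE 0.37, adjusted p = 0.35), and without P28 control 2 it was -0.93 and was called (adjusted p = 0.00889).

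Alpl was the most abundant of the genes per base of exon in anagen, and its anagen controls were above most dM1/2 libraries. Alpl (ENSMUSG00000028766, chr4:137741733-137796384, minus strand) had 13130, 12426 and 18252 normalized reads in P24 controls and 8123, 5366 and 5269 in dM1/2, without overlap. At P28 the controls had 7553, 1978 and 9669 and the dM1/2 libraries 1499, 1441 and 2216. Only P28 control 2 was below the highest dM1/2 library. The log2 difference at P28 was -1.64 (SE 0.57) and missed the threshold (adjusted p = 0.0639, limma). It was called by edgeR (adjusted p = 0.0336 with TMM), by DESeq2 (0.000562), in the fit over all 24 libraries (0.0045), and without P28 control 2, where it was -2.34 (adjusted p = 0.000823). In telogen Alpl was at 429 to 484 normalized reads in P20 controls and 346 to 791 in dM1/2, and the groups overlapped at P60 as well, with a log2 difference of -0.49 (SE 0.31, adjusted p = 0.986).

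The sum of the 10 DP markers moved with Alpl, with 238185 to 298933 normalized reads in P24 controls and 109149 to 146831 in P24 dM1/2, and 127812 to 322195 and 77616 to 95015 at P28. The most abundant markers weigh most in this sum. At P28 Vcan had means of 88539 in controls and 43995 in dM1/2, and Corin 48898 and 4532. Of those markers 3 were called higher (Sox2, Sox18 and Prom1) and 3 lower (Corin, Rspo3 and Lepr) at P28. At P24 1 was called higher, Prom1, and 5 lower. The sum of 4 adipocyte markers was 127 to 382 in controls and 12.9 to 19.3 in dM1/2 at P28, and it was carried by Plin1, with means of 266 and 14.6, while Adipoq, Cidec and Lep overlapped and were too low to test. The sums of keratinocyte, melanocyte, endothelial, immune, osteoclast, Schwann cell and muscle markers overlapped between the P28 groups, with 1 keratinocyte marker called higher. In the osteoclast list the sum was carried by Ctsk, while Dcstamp, Oscar and Calcr reached at most 1.85, 4.61 and 2.68 normalized reads in any library. The part of these differences in the results at P28 was not tested. The osteocalcin genes Bglap and Bglap2, markers of mature bone-forming cells, were near 0 in the anagen dM1/2 libraries, where they reached 0.426 and 0.727 normalized reads. The related Bglap3 reached 14.9 in the same libraries and 21.4 in any library. Ifitm5, which encodes a membrane protein of osteoblasts, reached 61.0 in the same libraries and 77.7 in any library.

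Phex (ENSMUSG00000057457, chrX:157162075-157415312, minus strand) was highest at P20. P20 controls had 477, 530.2 and 525 normalized reads and dM1/2 239, 507 and 281, with a log2 difference of -0.65 (SE 0.25) that was not called (adjusted p = 0.194). At P24 the controls had 74.7, 65.8 and 59.9 and the dM1/2 libraries 48.7, 20.2 and 22.3, without overlap. At P28 most libraries were between 9.13 and 22.5, and P28 control 2 alone reached 57.6. The difference at P28 was -0.10 (SE 0.73, adjusted p = 0.931), and it turned to 0.73 without P28 control 2.

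Among the inhibitors, Mgp (ENSMUSG00000030218, chr6:136872435-136875823, minus strand) had dM1/2 libraries below every control at P20. The controls had 1010, 1239 and 1027 normalized reads and the dM1/2 libraries 712, 792 and 694. The difference of -0.57 (SE 0.13) was not called with limma (adjusted p = 0.0756), and it was called with DESeq2 (adjusted p = 0.0218) and without P20 control 1 (-0.62, adjusted p = 0.026). At P28 the controls spread from 158 over 585 to 1103, around dM1/2 libraries at 334, 416 and 465. The difference was -0.22 (SE 0.64, adjusted p = 0.821). It depended on the controls, at -1.0 without P28 control 3 (adjusted p = 0.0221) and 0.40 without P28 control 2. Sost (ENSMUSG00000001494, chr11:101962458-101967015, minus strand) had 167 reads in all over 24 libraries, with its highest value, 54.1 normalized reads, in a P20 control. It overlapped between genotypes at P20, P24 and P60. At P28 it had 7 reads in the 3 controls and 0 in the 3 dM1/2 libraries.

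**Figure D3:**
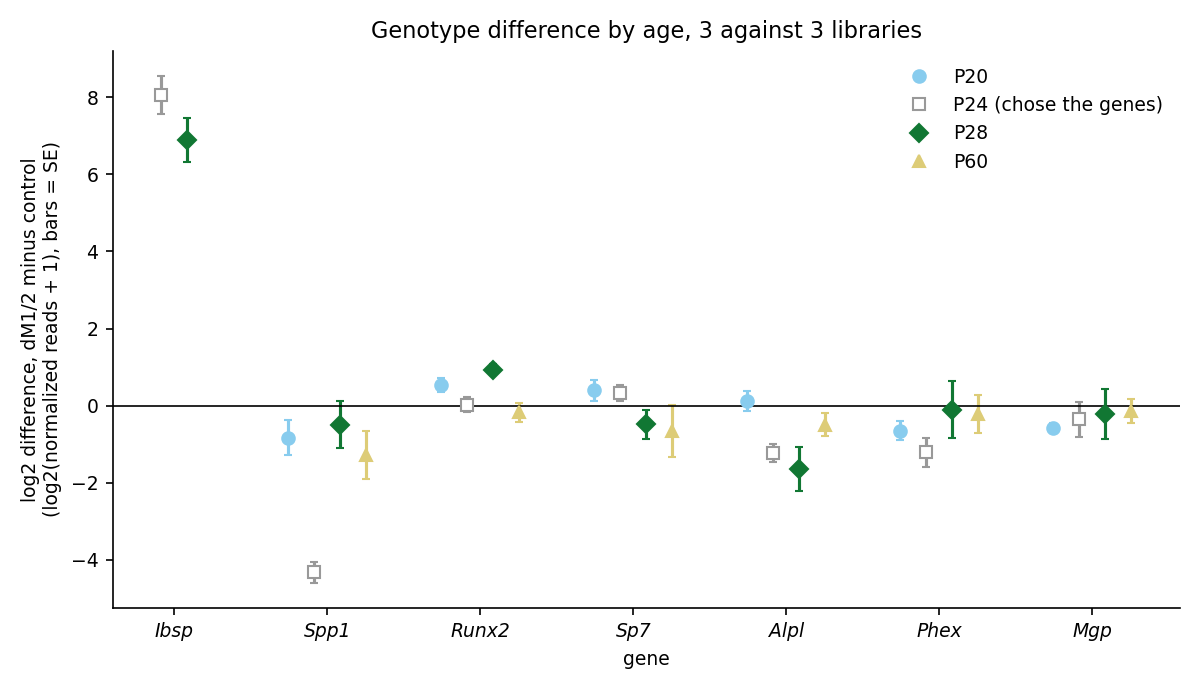
Difference between dM1/2 and control on the log2(normalized reads + 1) scale for the 7 genes tested at 2 ages or more, with SE, by age. Open squares are P24, the comparison that chose the genes. Ibsp is at 8.05 and 6.90 in anagen, and Runx2 at P28 is at 0.93.

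Of the 10 genes, 2 were called at P28 (Ibsp and Runx2, both higher), where 35.5% of all 14126 genes tested were called. Dmp1, Mepe and Sost were under the limit of a mean of 10 normalized reads, and Ibsp passed that limit through its dM1/2 libraries only. Of all genes 20% were called higher and 15.6% lower. Without P28 control 2, 4 of the 10 genes were called, with Alpl and Sp7 lower, and without P28 control 3, 3 were, with Mgp lower. At P20, 0 of the 7 tested among the 10 were called by limma, beside 0.433% of all genes tested (0.354% higher and 0.0795% lower). Of all genes tested at P20, 2735 had an unadjusted p under 0.05. At P60, 0 of the 6 tested among the 10 and 0% of all genes tested were called by limma, with 525 genes at an unadjusted p under 0.05. edgeR likewise called 0 genes at P60, and DESeq2 called 26, with 0 of the 10 among them. At P24 the same fit called 26.6% of all genes (14.8% higher and 11.8% lower). Calls of the 10 are not given there, since this comparison chose the genes. As a description, the P24 dM1/2 libraries were above every control for Ibsp and below every control for Spp1, Dmp1, Alpl and Phex. The others of the 10 overlapped or had no read. The share of all genes whose groups did not overlap at P24 was not counted, so nothing is read from this. For the effect at P28 minus that in telogen, 2 of the 7 tested among the 10 were called (Ibsp and Runx2), beside 25.8% of all genes tested (13.8% higher and 12% lower). Alpl missed the threshold there (-1.45, SE 0.56, adjusted p = 0.0703), and it was called by edgeR (adjusted p = 0.0217 with TMM), by DESeq2 (0.00515), with the replicate block (0.0492), without P28 control 2 (-2.15, adjusted p = 0.00149) and without P60 dM1/2 2 (-1.61, adjusted p = 0.0448).

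Within a genotype the genes also changed with age. From P20 to P60 in controls Spp1 rose and Sp7, Alpl and Phex fell, 4 of the 7 tested among the 10 genes. Of all genes tested 12.6% were called (6.12% higher and 6.45% lower). Phex fell by 3.56 on the log2 scale (SE 0.30, adjusted p = 0.000249, limma), from 511 ± 29.5 to 45.6 ± 21.3 normalized reads. Sp7 fell by 1.86 (SE 0.38, adjusted p = 0.0149) and Alpl by 0.73 (SE 0.17, adjusted p = 0.0262). Spp1 rose by 1.66 (SE 0.30, adjusted p = 0.00888), from 164 ± 80.1 to 483 ± 17.8. Without P20 control 3 the calls of Sp7 (adjusted p = 0.0696) and Alpl (0.103) were lost, the latter also without P20 control 2 (0.078) or P60 control 1 (0.0726), and that of Sp7 without P60 control 2 (0.0528). In dM1/2 Sp7 fell by 2.92 (SE 0.58, adjusted p = 0.0287, limma) and Phex by 3.12 (SE 0.43, adjusted p = 0.0107) over the same interval. These were 2 of the 7 tested among the 10 genes, beside 6.32% of all genes tested (3.96% higher and 2.35% lower). Without the library P20 dM1/2 2 or P20 dM1/2 3 none of the 10 was called (Phex 0.0535 and 0.0522, Sp7 0.12 and 0.134). Sp7 was also lost without P20 dM1/2 1 (0.0852) or P60 dM1/2 2 (0.0923). Leaving out P60 dM1/2 1 or P60 dM1/2 3 raised the count to 4. Whether the change with age differed between the genotypes was not tested.

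From P24 to P28 Spp1 fell in controls, from 569 ± 143 to 39.8 ± 23.8 normalized reads, a log2 difference of -3.95 (SE 0.46, adjusted p = 0.0305, limma). It was the only one called of the 6 tested among the 10 genes, beside 1.46% of all genes tested (0.723% higher and 0.738% lower). The call was lost without any single P24 control (adjusted p = 0.107, 0.0736 and 0.101, limma) and without P28 control 2 (0.0617). In dM1/2 Alpl fell by 1.86 (SE 0.22, adjusted p = 0.0062, limma), from 6253 ± 1621 to 1719 ± 432, and Mgp rose by 1.30 (SE 0.19, adjusted p = 0.0153), from 165 ± 36.2 to 405 ± 65.9. These were 2 of the 7 tested among the 10 genes, beside 2.67% of all genes tested (1.69% higher and 0.983% lower). The call of Mgp was lost without P24 dM1/2 1 (0.0545), P28 dM1/2 2 (0.0835) or P28 dM1/2 3 (0.0563), and without P24 dM1/2 2 Sp7 was called lower as well (-1.14, adjusted p = 0.0263). Ibsp in dM1/2 was at 655 ± 272 at P24 and 225 ± 139 at P28, with overlapping libraries. P24 values entered these comparisons, so the calls and p-values of the chosen genes here are not independent of their choice. They describe the change with age and are no separate support for it.

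Counted per kilobase of exon, which allows genes to be compared, Ibsp was second to Alpl in dM1/2 at P24. At P24 in dM1/2 the level per kilobase was 1550 ± 402 normalized reads for Alpl, 317 ± 132 for Ibsp, 284 ± 83.1 for Sp7, 139 ± 30.5 for Mgp, 70.1 ± 5.95 for Runx2 and 16.5 ± 3.91 for Spp1 (SD, n = 3). Ibsp and Sp7 did not differ there beyond their spread. In P24 controls the order was Alpl at 3621 ± 788, Spp1 at 345 ± 86.7, Sp7 at 222 ± 16.3, Mgp at 207 ± 153 and Runx2 at 70.5 ± 19.1, with Ibsp at 0.737 ± 0.65. At P28 in dM1/2 the level per kilobase was 426 ± 107 for Alpl, 341 ± 55.5 for Mgp, 145 ± 18.4 for Sp7, 109 ± 67.2 for Ibsp and 99.1 ± 3.24 for Runx2, so that Sp7 and Runx2 lay within 1 SD of Ibsp. In telogen Mgp led, at 920 ± 108 in P20 controls and 1404 ± 325 in P60 controls.

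No other tested gene around Ibsp was called higher at P28. The annotation has 14 protein-coding genes whose bodies reach within 500 kb of the start of Ibsp, itself included, and 9 were tested at P28. Of these, 6 were called, with Ibsp as the only one higher and 5 lower, where 20% of all genes were called higher and 15.6% lower. Klhl8 fell by 1.58 on the log2 scale (SE 0.23, adjusted p = 0.00277, limma), from 457 ± 78.9 to 154 ± 40.1 normalized reads. Sparcl1, which encodes a matricellular protein related to SPARC, fell by 1.32 (SE 0.29, adjusted p = 0.0127). Pkd2, the gene of the cation channel polycystin 2, fell by 0.87 (SE 0.12, adjusted p = 0.00234), Aff1 by 0.84 (SE 0.25, adjusted p = 0.0372) and Hsd17b11 by 0.80 (SE 0.15, adjusted p = 0.00737). Nudt9 (0.30, adjusted p = 0.257), BC005561 (0.46, adjusted p = 0.104) and Spp1 were not called. Dspp, Dmp1, Mepe, Hsd17b13 and Gm17660 were too low to test, so the nearest genes on either side of Ibsp, Dmp1 and Mepe, were among the untested.

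**Figure D4:**
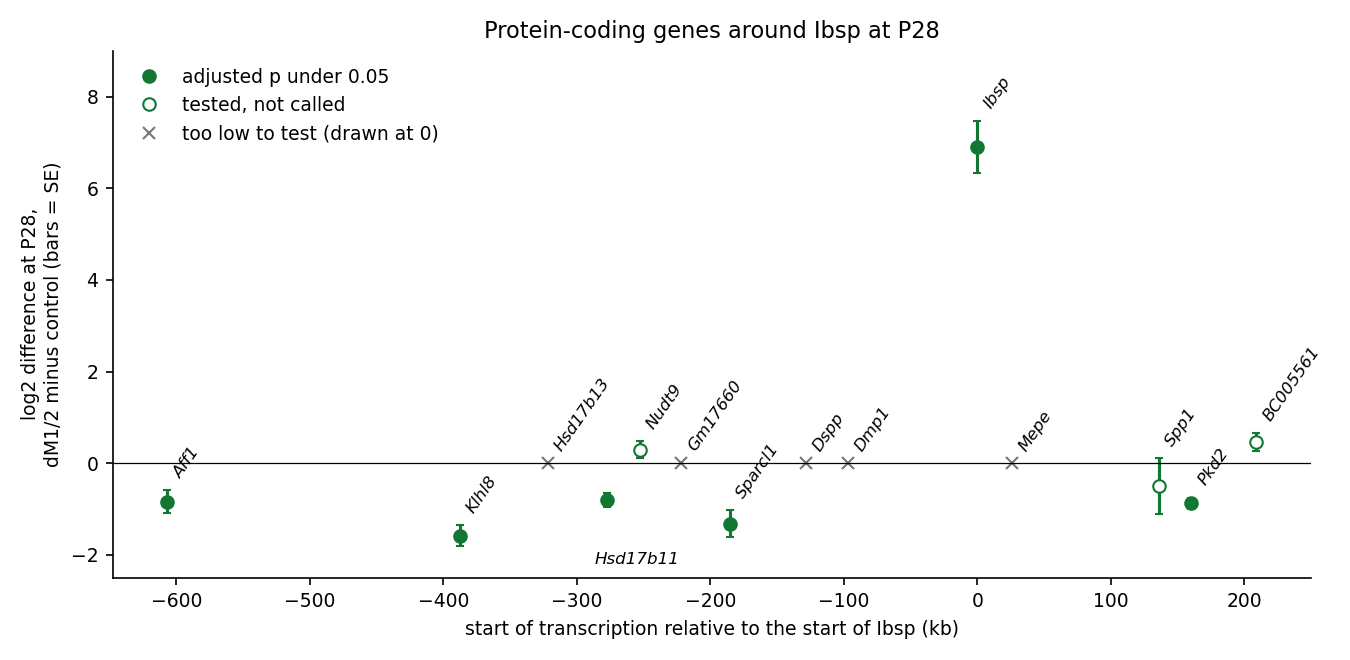
Log2 difference between dM1/2 and control at P28 for the protein-coding genes around Ibsp, with SE, against the distance of their transcription start from that of Ibsp in kb. Filled points passed the test, open ones did not, and crosses mark genes too low to test. Ibsp at 6.90 is the only called point above 0, and the lowest is Klhl8 at -1.58.

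The wider bone and mineral pathway held genes that rose and genes that fell at P28. The 6 lists, of bone matrix, osteoblast transcription, phosphate and pyrophosphate, receptors, osteoclast and hormone signals, and cartilage, held 67 genes of the tables besides the 10, of which 55 were tested at P28, 10 higher and 12 lower. The median log2 difference of the 55 was -0.31, beside 0.0038 for all genes tested, with 20% of all genes called higher and 15.6% lower. Without P28 control 3 the counts were 14 higher and 21 lower. In the list of osteoblast transcription factors 6 of 12 tested genes were higher and 0 lower, with a median of 0.85. Sox9, the master factor of cartilage and also a follicle factor, had 44.7 to 140.1 normalized reads in controls and 1151 to 1313 in dM1/2, a log2 difference of 3.92 (SE 0.38, adjusted p = 0.0007, limma). Dlx5, a homeodomain factor of osteoblasts, had 2.28 to 6.09 in controls and 53.0 to 74.6 in dM1/2 (3.93, SE 0.43, adjusted p = 0.00103). Dlx5 and Dlx3, another of the 6 and named here after its values were seen, passed the limit of 10 normalized reads through their dM1/2 libraries only.

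In the bone matrix list only Fam20a, which encodes a partner of the kinase for secreted proteins, was called of 9 tested genes, and it fell by 1.54 (SE 0.26, adjusted p = 0.00458). The median of that list was -0.42. Of 10 tested genes of phosphate and pyrophosphate 1 was higher, Xpr1, a phosphate exporter (0.73, adjusted p = 0.00592), and 3 were lower. Ggcx, the carboxylase that activates Mgp with vitamin K, fell by 1.22 (SE 0.15, adjusted p = 0.00147) and Slc20a2, a phosphate importer, by 0.81 (SE 0.25, adjusted p = 0.043). Among the 9 genes of the receptor list, which also holds Sostdc1, not itself a receptor, 1 was higher and 4 were lower. Itgav, the integrin chain that takes part in binding bone sialoprotein and osteopontin, fell by 1.01 (SE 0.14, adjusted p = 0.00248), from 4347 ± 374 to 2163 ± 294 normalized reads. Sostdc1, a relative of sclerostin, fell by 3.22 (SE 0.31, adjusted p = 0.000718), from 24783 ± 9206 to 2532 ± 318, and Lrp4, a receptor of sclerostin, rose by 0.99 (SE 0.26, adjusted p = 0.0257).

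Of 8 tested osteoclast and hormone signals 2 were higher and 4 lower. Bmp2 rose by 1.74 (SE 0.23, adjusted p = 0.00186) and Bmp4 by 0.97 (SE 0.26, adjusted p = 0.025), both secreted inducers of bone. Tnfrsf11b, or osteoprotegerin, fell by 2.80 (SE 0.37, adjusted p = 0.00187) and Pth1r, the parathyroid hormone receptor, by 0.97 (SE 0.17, adjusted p = 0.00583). No cartilage gene was called of 7 tested. In telogen, at P20 0 of 52 tested pathway genes were called, beside 0.433% of all genes tested, and at P60 0 of 56, beside 0%. At P24 10 of 56 were higher and 8 lower, beside 14.8% and 11.8% of all genes tested.

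**Figure D5:**
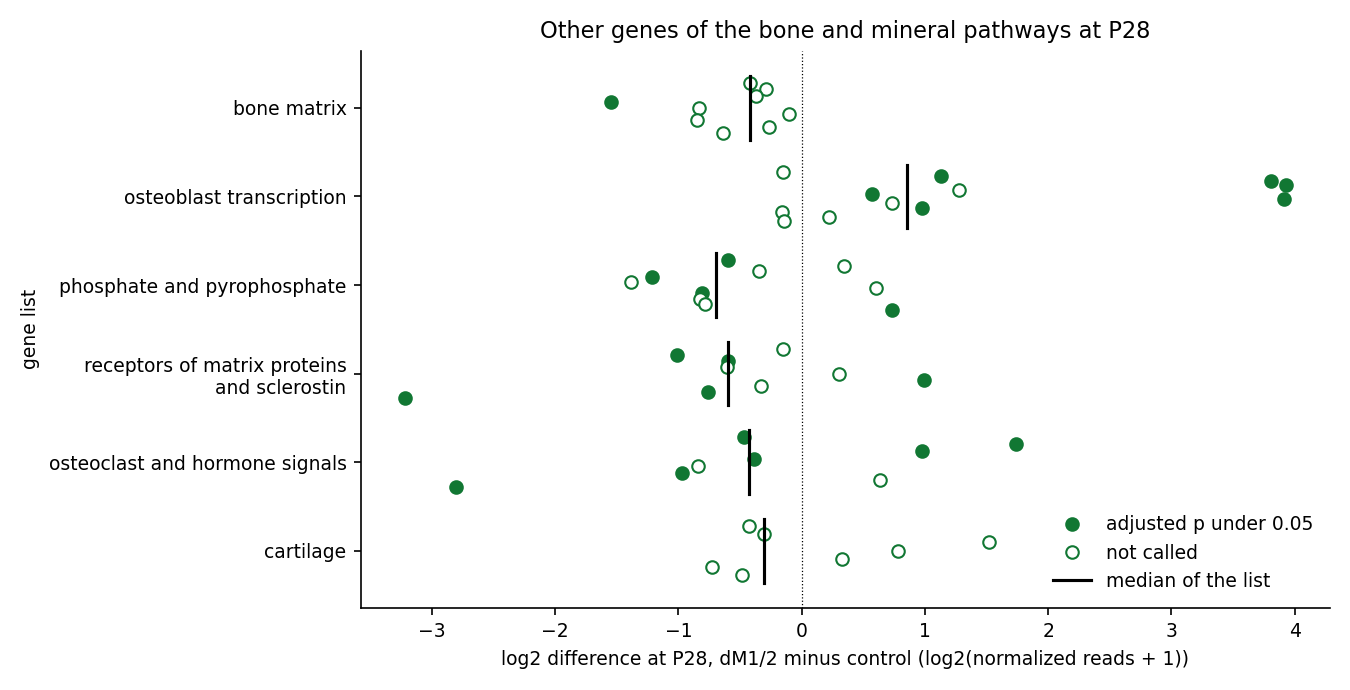
Log2 difference between dM1/2 and control at P28 for the tested genes of 6 pathway lists. Filled points passed the test and the bars are the medians of the lists. The osteoblast transcription list has a median of 0.85, with 6 genes called higher, and the 5 other lists have medians below 0.

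The genes most like Ibsp over the 8 group means were Trim37, Dok4, Palb2, Hrh3 and Rngtt among 14242 compared. Each gene was scaled from 0 in its lowest to 1 in its highest group on the log2 scale. Predicted genes known by a number only are counted in the 14242 and were left out of the ranking. Their mean absolute difference from the scaled means of Ibsp was 0.0519, 0.0534, 0.0551, 0.0552 and 0.0629. Hrh3, a histamine receptor, had 0.926 and 0.379 normalized reads in P24 and P28 controls and 53.9 and 43.4 in dM1/2. In telogen Hrh3 was at 0 to 1.52 in the group means. Trim37 was present in all groups and rose at P28 from 449 to 1026 normalized reads (log2 difference 1.21, adjusted p = 0.00226). Dok4 (1.23, adjusted p = 0.000836) and Rngtt (0.75, adjusted p = 0.0136) were called at P28 too, and Palb2 was not (0.73, adjusted p = 0.0689). The likeness was measured over all 8 groups, P24 and P28 included, so these p-values are not independent of the choice of the genes.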

How the data were processed

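RNA of FACS-sorted DP cells from 24 libraries was depleted of ribosomal RNA and sequenced by the authors as 50-base single reads from directional libraries. Per the submitters' processing notes and the methods, trimming used Trimmomatic, mapping to mm10 used TopHat2 (version 2), counting per Ensembl gene of GRCm38.p4 used HTSeq, and DESeq2 gave the normalization. The deposited signal is a normalized read number, scaled by 1 size factor per library (0.349 to 2.96), and the factors equal those computed here over all 24 libraries together. Dividing by the value of 1 read gave whole reads, within 0.01 reads, for 100% of the values. The fold changes and p-values that the authors deposited beside them were not used.

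Groups were taken from the sample labels. Values were compared as log2(normalized reads + 1) with limma 3.58.1 (trend, R 4.3.3), two-sided, in genes averaging 10 or more normalized reads over the libraries compared, with Benjamini-Hochberg adjustment over all genes tested and a threshold of 0.05. Sums, means and SD are over libraries, which the labels number as biological replicates. The study describes dissociating and sorting the skin of each mouse separately, from 3 mice per group. Alternatives were a pseudocount of 10, no filter, edgeR 4.0.16 and DESeq2 1.42.0 on the recovered reads, the replicate number as a block, a fit over 24 libraries and leaving out each library. The limma fit of the P28 comparison was tested on simulated data, in which every gene was given the same dispersion. The other fits were not tested in this way. With 3 libraries against 3 an exact permutation test of a single gene cannot go below p = 0.1, so none was run. The members and the gene lists were chosen with earlier results of these data known. The text names the 10 members, Hdac1 and Hdac2, the protein-coding genes within 500 kb of Ibsp, the 5 genes most like Ibsp and, from each list, up to 2 largest rises and 2 largest falls at P28 past the threshold with groups that did not overlap. Marker genes named beside the results were chosen after their values were seen. Coordinates and exon lengths are those of GENCODE for GRCm38. A count of 0 allows up to 3 reads, for counting error only.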

Additional observations from a re-analysis of the deposited data

Results flagged for a closer look

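For Ibsp the effect at P28 minus the mean effect at P20 and P60 was 6.90 on the log2 scale (adjusted p = 8.64e-05, limma, and 0.9999 with edgeR), with 3 of 3 dM1/2 libraries above every control at P28. Ibsp had no read in telogen, so this value restates the P28 difference. The same contrast for Runx2 gave 0.76 (adjusted p = 0.0403, limma), with 3 of 3 dM1/2 libraries above every control at P28 and at P20, and overlap at P60. Stage, sex and depth cannot be told apart in either. Groups of 3 libraries were not searched for outlying samples.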

How the results depend on the processing

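The calls of Ibsp and Runx2 at P28 held in all alternatives, with Ibsp between 4.29 and 7.95 and Runx2 between 0.82 and 1.03. Counts of the 10 genes called moved as follows. At P20 the count was 0, and 1 with DESeq2 and with the replicate block (Mgp, adjusted p = 0.0401), and 0 to 2 leaving out a library. At P24, which chose the genes, no count is given. At P28 the count was 2, and 3 with edgeR, DESeq2, the replicate block and the fit over 24 libraries, with Alpl added in each. It was 2 to 4 leaving out a library. For P28 minus telogen it was 2, and 1 without the filter (Runx2, adjusted p = 0.0521, limma), 3 with DESeq2 and with the replicate block and 1 to 3 leaving out a library. edgeR called 2 there, Runx2 and Alpl. From P24 to P28 in controls it was 1, and 0 with the replicate block, 3 in the fit over 24 libraries and 0 to 1 leaving out a library. In dM1/2 it was 2, and 4 with DESeq2, 0 in the fit over 24 libraries and 1 to 3 leaving out a library. From P20 to P60 in controls it was 4, and 5 with DESeq2 and with edgeR on the DESeq2 size factors. It was 3 there with the replicate block, 2 in the fit over 24 libraries and 2 to 4 leaving out a library. In dM1/2 over that interval it was 2, and 4 with DESeq2, 3 in the fit over 24 libraries and 0 to 4 leaving out a library. The cause of these moves was not tested. Pathway genes called lower at P28 numbered 12, and 8 to 21 leaving out a library, alternatives added after seeing the data, as were those for the 10 pathway genes called higher (7 to 14). At P28 Phex ranged from -0.53 to 0.73 and Mgp from -1.0 to 0.40 leaving out a library, so their direction turned.

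Over all genes, P20 gave 60 calls (49 higher, 11 lower), and 668 with DESeq2 (296 higher, 372 lower), 439 with the replicate block (240 higher, 199 lower) and 23 in the fit over 24 libraries. P24 gave 3735, and 2366 with the block. P60 gave 0, and 1 with a pseudocount of 10, 26 with DESeq2, 6 with the block and 19 in the fit over 24 libraries. From P24 to P28, controls gave 204, and 1494 with DESeq2, 27 with the block and 1313 in the fit over 24 libraries, and dM1/2 gave 375, and 1127 with DESeq2 and 78 in the fit over 24 libraries. From P20 to P60, controls gave 1746, and 923 with the block, and dM1/2 gave 892, and 1837 with DESeq2 and 2176 in the fit over 24 libraries. Leaving out a library gave 0 to 1530 at P20, 2057 (without P24 control 2) to 4012 at P24, 3043 to 5788 at P28 (5018), 0 to 67 from P24 to P28 in controls and 57 to 446 in dM1/2, and 527 to 2796 and 100 to 1772 from P20 to P60. The labels do not say that a replicate number marks a shared litter or day: in no comparison did all 3 same-numbered libraries deviate together with a correlation over 0.1 (0.231, 0.0822 and 0.116 at P20). Each P20 library correlated best with its own number, a hint from the data only. Beside Mgp at P20, the block added Alpl at P28 (adjusted p = 0.0362) and at P28 minus telogen (0.0492) and ended the calls of Spp1 from P24 to P28 (0.0649) and of Alpl from P20 to P60 in controls (0.0536). Calls of the 10 genes at P24, and that of Ibsp from P24 to P28, are not given, since P24 chose the genes. No other call of the 10 genes changed with the block. Leaving out a library leaves a group of 2, whose spread is estimated over all groups of the fit. P28 minus telogen was not fitted over 24 libraries. In telogen the depth limits Dmp1, Sost and Ibsp, for which 3 reads come to 5.55 to 8.60 normalized reads.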
